A study of Homo sapiens with 6 samples.

Results

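The genes described here serve cholesterol in the human cell: the enzymes that build it, the proteins that sense it, those that move it between membranes, and the liver X receptor (LXR) genes linked to its removal. They were taken by symbol from a list of 33 genes, of which 32 were found among the 23710 symbols of the count files, and 30 of these held enough reads to be tested. SC5D, the remaining symbol, was not found under that name, and its older symbol SC5DL is given separately below and enters no count. By role the 32 genes comprise 19 enzymes of synthesis, 4 genes of the sterol-sensing machinery, 3 of sterol transfer, 5 of LXR and efflux, and SOAT1, which esterifies cholesterol for storage.

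The treated cells were K562 cells, a line from a chronic myelogenous leukemia with erythroid features, given 3FM-dC at 20 µM together with THU at 2 mM and kept for 24 h. Control K562 cells received an equal amount of DMSO, the solvent, and neither compound, so effects of 3FM-dC and of THU cannot be told apart. Both groups were grown at passages 13 to 16 in medium with fetal bovine serum, and each had 3 libraries of directional mRNA sequencing. The series title presents a small-molecule activator of TET2, an enzyme that oxidises methylated cytosine in DNA, and the stated purpose was to learn how 3FM-dC alters gene expression.

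The treated replicates 1, 2 and 3 held 19052821, 20176827 and 20737363 counts in genes, and the DMSO replicates 18610733, 18408826 and 22750278. Levels are given as CPM, the count of a gene relative to the size of its library, with library sizes adjusted by TMM, which balances the bulk of genes between libraries. The labels do not say that replicates were separate cultures, so the p-values reflect the variation among 6 libraries and that variation could be technical. Of 12339 genes tested with edgeR's quasi-likelihood test, 66.4% passed a Benjamini-Hochberg adjusted p of 0.05, with 33.8% higher and 32.7% lower. Of these calls 50.8% were thus higher, against 61.4% when libraries were scaled by their total counts. All 8 erythroid markers checked were detected, and their summed level lay between 3101 and 3153 CPM in treated and between 5932 and 6075 CPM in DMSO libraries. Of the markers of other cell types, lymphoid, fibroblast and hepatocyte lists summed to at most 11.3 CPM in any library, with MS4A1, CD2, LUM, TTR and SERPINA1 at 0 in every library. EPCAM alone carried the epithelial list, at 62.1 CPM in treated and 103 CPM in DMSO cells, with KRT5 and KRT14 at 0. The part of these shifts in the results below was not tested.

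Cholesterol is made from acetyl-CoA through mevalonate, farnesyl diphosphate, squalene and lanosterol. The transcription factor SREBP2, encoded by SREBF2, drives most of these enzymes: when sterols in the endoplasmic reticulum are low, SCAP carries SREBP2 to the Golgi, where it is cleaved and freed to enter the nucleus, and when sterols are high the INSIG proteins hold SCAP back. Oxidised sterols instead activate the LXR receptors, which induce exporters such as ABCA1 and ABCG1. Proliferating leukaemia cells need cholesterol for new membranes and can make it or take it up from serum lipoproteins.

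SREBP2 binds sterol regulatory elements in promoters next to boxes bound by the factor NF-Y, whose core letters are CCAAT. RefSeq promoter windows (250 bases before to 50 after a transcription start, 300 in all, build GRCh38.p14) matched 28 of the 32 genes by symbol. ACAT2, FDFT1, SQLE and ABCG1 had no match. Windows are printed for 6 genes to set side by side the enzyme and the regulator with the largest falls, enzyme promoters rich in CCAAT boxes, the rising enzyme PMVK and the regulator SREBF2. All read 5′ to 3′ along the gene, and capitals mark CCAAT on either strand (ATTGG on the reverse) and the sterol element, also searched on both strands, in its short form TCACNCCA in MSMO1 and its longer form TCACNCCAC in SREBF2. HMGCS1 stands at chr5:43313363-43313662 on the minus strand and is the first of its 2 windows, NSDHL at chrX:152830813-152831112 on the plus strand, MSMO1 at chr4:165327419-165327718 on the plus strand, PMVK at chr1:154936670-154936969 on the minus strand, INSIG1 at chr7:155297628-155297927 on the plus strand and SREBF2 at chr22:41832855-41833154 on the plus strand.
HMGCS1: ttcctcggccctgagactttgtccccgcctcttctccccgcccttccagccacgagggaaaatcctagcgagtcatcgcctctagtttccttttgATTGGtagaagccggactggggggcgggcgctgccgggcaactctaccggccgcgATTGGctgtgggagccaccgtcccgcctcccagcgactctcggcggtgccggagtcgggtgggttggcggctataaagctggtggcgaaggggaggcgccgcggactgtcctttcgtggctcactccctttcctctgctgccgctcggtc
NSDHL: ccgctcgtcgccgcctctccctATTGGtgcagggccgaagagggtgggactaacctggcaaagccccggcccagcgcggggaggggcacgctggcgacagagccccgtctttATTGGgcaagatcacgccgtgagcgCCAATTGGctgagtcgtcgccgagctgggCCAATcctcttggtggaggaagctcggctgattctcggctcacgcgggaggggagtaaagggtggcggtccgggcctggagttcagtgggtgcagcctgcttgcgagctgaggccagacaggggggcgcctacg
MSMO1: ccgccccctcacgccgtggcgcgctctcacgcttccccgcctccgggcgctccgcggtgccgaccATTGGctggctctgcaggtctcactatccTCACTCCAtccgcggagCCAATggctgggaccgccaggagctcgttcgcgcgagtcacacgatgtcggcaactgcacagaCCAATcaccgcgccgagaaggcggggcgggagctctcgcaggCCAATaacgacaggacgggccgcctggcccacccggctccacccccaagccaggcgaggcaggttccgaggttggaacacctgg
PMVK: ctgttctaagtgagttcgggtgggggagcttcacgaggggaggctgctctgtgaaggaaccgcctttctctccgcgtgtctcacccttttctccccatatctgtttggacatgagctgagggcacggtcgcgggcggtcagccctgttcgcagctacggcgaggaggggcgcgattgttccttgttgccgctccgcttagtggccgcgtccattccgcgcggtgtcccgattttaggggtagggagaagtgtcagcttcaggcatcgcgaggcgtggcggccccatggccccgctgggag
INSIG1: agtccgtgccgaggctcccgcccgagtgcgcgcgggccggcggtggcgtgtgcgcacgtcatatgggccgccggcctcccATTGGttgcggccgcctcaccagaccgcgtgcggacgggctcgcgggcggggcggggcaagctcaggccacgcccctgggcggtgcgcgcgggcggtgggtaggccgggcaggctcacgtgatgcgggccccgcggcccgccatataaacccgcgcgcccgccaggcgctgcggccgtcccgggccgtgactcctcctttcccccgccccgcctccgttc
SREBF2: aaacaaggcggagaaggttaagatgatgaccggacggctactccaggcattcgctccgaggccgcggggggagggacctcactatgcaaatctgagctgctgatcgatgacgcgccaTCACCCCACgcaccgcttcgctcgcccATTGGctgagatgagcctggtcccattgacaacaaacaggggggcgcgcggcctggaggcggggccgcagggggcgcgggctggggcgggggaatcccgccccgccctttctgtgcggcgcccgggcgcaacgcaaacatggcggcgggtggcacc

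CCAAT was found in the windows of 13 of 16 enzymes of synthesis with a match (81.2%), and 10 of these 16 (62.5%) held at least 2 copies in a single window. Among all 8946 tested genes with a window, 43.6% held it and 16.5% held at least 2 copies. MVK and NSDHL held 5 copies each and MSMO1 held 4. In NSDHL and in IDI1 a pair of copies on opposite strands overlaps by 2 bases. PMVK, CYP51A1 and LBR held none. Of the 12 other genes with a window, 7 held CCAAT (58.3%).

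The short sterol element occurred in MVK, MSMO1 and SREBF2, against 4.69% of tested genes with a window. This longer form, which contains the short one, occurred in SREBF2 only, 133 bases before its start, and in 1.43% of tested genes. DR4, the repeat of AGGTCA with a spacer of 4 bases that LXR binds, was found in none of the 28 genes and in 0.0112% of tested genes. A match is only a run of letters in this window, and a gene without a match may hold other forms of a site.

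**Figure D1:**
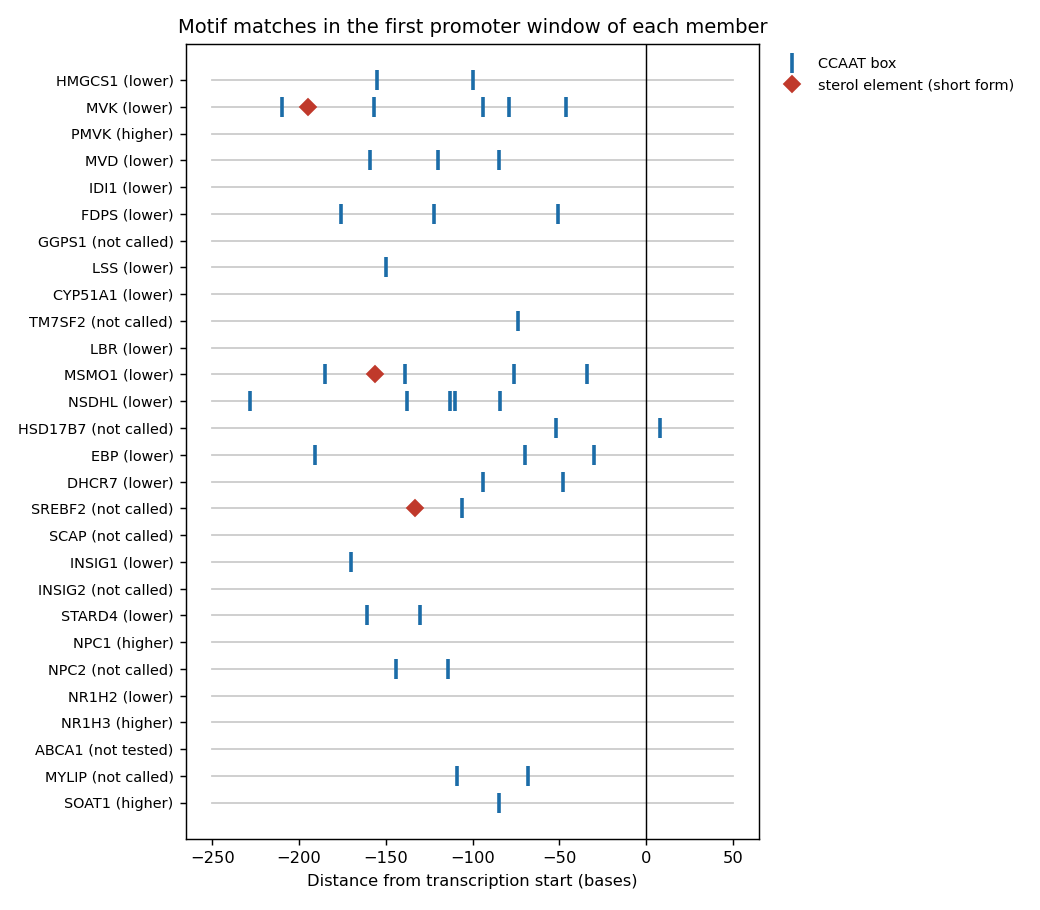
Each line is the first RefSeq promoter window of a cholesterol gene, with distance from the transcription start in bases on the x axis and the test call of the gene in brackets (higher or lower in treated cells). Blue ticks mark CCAAT on either strand and red diamonds the short sterol element, and windows of synthesis enzymes such as MVK and NSDHL hold up to 5 ticks while PMVK holds none. IDI1, GGPS1 and NR1H3 hold CCAAT only in further windows that are not drawn.

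Most enzymes of cholesterol synthesis were lower in treated K562 cells. Over all 30 tested genes 18 fell (60%) and 4 rose (13.3%), against 32.7% and 33.8% of all genes tested. Of the 19 enzymes, 15 fell (78.9%, against 32.7% of all genes tested), PMVK rose and 3 did not pass the test. SQLE fell by 28.6% and HMGCS1 fell by 61.7%, the smallest and largest of the 15 falls. Every treated library lay below every DMSO library in 15 of the 19 enzymes, against 34.5% of all genes tested. These were the same 15 that fell, so the arrangement restates the calls, which rest on the same counts. The median log2 fold change of the 19 enzymes was -0.66, and that of all genes tested was 0.01. Bulk RNA cannot tell fewer cells of a kind from less RNA per cell.

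**Figure D2:**
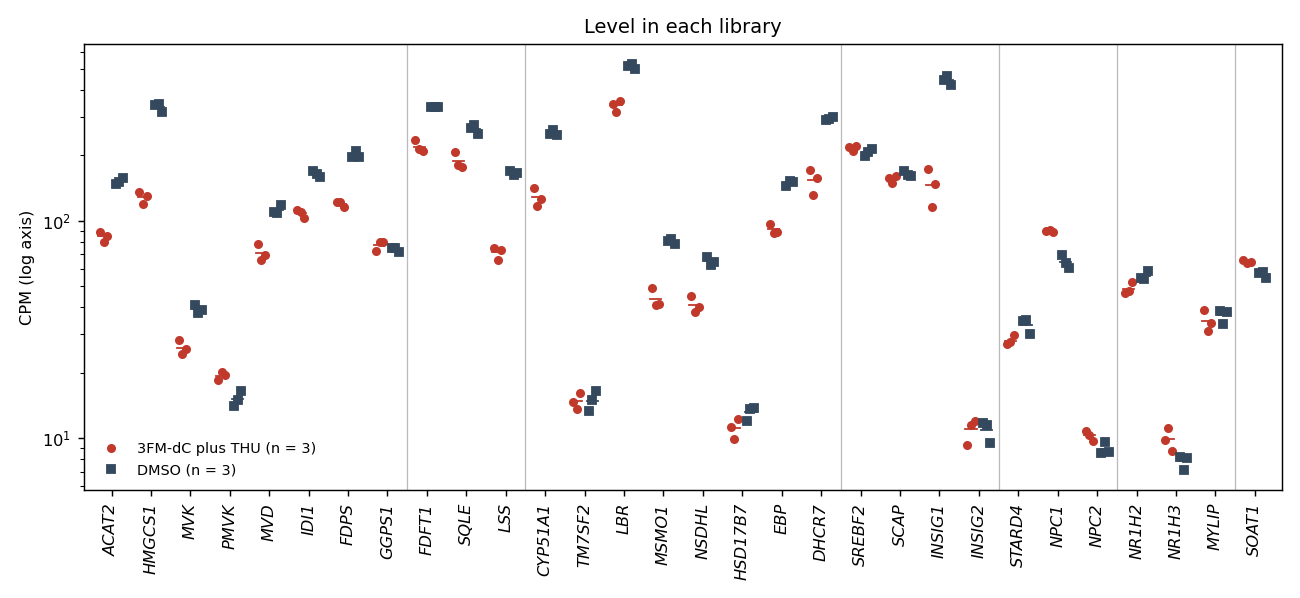
CPM of the 30 tested cholesterol genes in each library on a log axis, with 3FM-dC plus THU (red circles) left of DMSO (dark squares) and a short line at each mean, n = 3 each. Grey lines separate the roles, from the mevalonate pathway at the left to SOAT1 at the right, and the groups stand apart for HMGCS1, LSS and INSIG1 while those of TM7SF2 and INSIG2 overlap.

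In the mevalonate part of the pathway, which turns acetyl-CoA into isoprenoid units, 6 of 8 genes fell (75%, against 32.7% of all genes tested). HMGCS1, which condenses acetyl-CoA and acetoacetyl-CoA to HMG-CoA, had 136, 119.9 and 129.8 CPM in treated replicates 1, 2 and 3, against 342, 346 and 318 CPM in DMSO replicates 1, 2 and 3. The highest treated library was thus far below the lowest DMSO library. HMGCS1 was 2.61-fold lower (log2 fold change -1.38, SE 0.04, edgeR adjusted p = 7.65e-21).

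ACAT2, the cytosolic thiolase that supplies acetoacetyl-CoA, had 89.2, 80.0 and 84.7 CPM in treated replicates 1, 2 and 3, against 147, 151 and 157 CPM in DMSO replicates 1, 2 and 3. The treated values lay far below the DMSO values, and ACAT2 fell by 0.84 on the log2 scale (SE 0.05, edgeR adjusted p = 4.45e-15). Its value carries an uncertainty of counting: in GENCODE 29, 34.8% of its exonic bases overlap SOD2 and 12.5% TCP1, both on the opposite strand, and no source used here states the strand setting. SOD2 averaged 68.8 CPM in treated and 102 CPM in DMSO cells (log2 fold change -0.57). TCP1 averaged 757 CPM in treated and 1230 CPM in DMSO cells (log2 fold change -0.70). Both partners were thus lower too, and TCP1 was far more abundant than ACAT2.

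Farnesyl diphosphate synthase, FDPS, which joins isoprenoid units into the common precursor of sterols and prenyl groups, had 121, 122 and 115 CPM in the treated libraries, against 197, 209 and 197 CPM in the DMSO libraries. It fell by 0.75 on the log2 scale (SE 0.04). Of its exonic bases 28.9% overlap RUSC1-AS1 on the opposite strand, which averaged 0.126 CPM in treated and 0.0740 CPM in DMSO cells. MVD, the decarboxylase that yields isopentenyl diphosphate, averaged 71.4 ± 6.26 CPM in treated cells and 112 ± 5.20 CPM in DMSO cells (SD, n = 3 each). IDI1, the isomerase of that product, averaged 108 ± 4.26 CPM in treated cells and 164 ± 5.46 CPM in DMSO cells. MVK, which phosphorylates mevalonate, was the least abundant of the 6 falling genes of this stage per kb of exon and averaged 26.0 ± 1.92 CPM in treated cells and 39.1 ± 1.68 CPM in DMSO cells. MVD, IDI1 and MVK had log2 fold changes of -0.66, -0.60 and -0.59, with edgeR adjusted p-values of at most 6.25e-08.

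PMVK, the kinase that acts directly after MVK, was the exception, with 18.54, 20.20 and 19.45 CPM in the treated libraries, against 13.98, 14.97 and 16.43 CPM in the DMSO libraries. All treated values lay above all DMSO values, and PMVK rose 1.28-fold (log2 fold change 0.36, SE 0.10, edgeR adjusted p = 0.00214). Against a minimum fold change of 1.2 it did not pass (adjusted p = 0.139; 0.000203 to 0.139 over 13 alternatives). GGPS1, which diverts farnesyl diphosphate into geranylgeranyl groups for protein prenylation and not into sterols, had 72.4, 80.0 and 79.9 CPM in the treated libraries, against 74.7, 75.1 and 71.5 CPM in the DMSO libraries. Its groups overlapped (log2 fold change 0.07, 95% interval -0.04 to 0.18, edgeR adjusted p = 0.240), while libraries scaled by total counts gave a rise of 0.16 (adjusted p = 0.00892; 0.00892 to 1 over 13 alternatives). TBCE on the same strand overlaps 11.3% of the exonic bases of GGPS1.

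All 3 enzymes from farnesyl diphosphate to lanosterol fell (100%, against 32.7% of all genes tested). FDFT1, squalene synthase, is the first enzyme committed to sterols and had 235, 214 and 209.9 CPM in the treated libraries, against 335, 335 and 334 CPM in the DMSO libraries. SQLE, which epoxidises squalene and is a rate-controlling step, had 208, 181 and 177 CPM in the treated libraries, against 268, 275 and 249.7 CPM in the DMSO libraries. Both were lower in every treated library, SQLE with the smallest fall among the 15 enzymes (log2 fold change -0.49, SE 0.05, against -0.61, SE 0.04, for FDFT1).

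LSS, which folds squalene epoxide into the ring system of lanosterol, had 75.3, 66.1 and 73.2 CPM in treated replicates 1, 2 and 3, against 169, 163 and 166 CPM in DMSO replicates 1, 2 and 3. No treated value came near the DMSO range, and LSS was 2.32-fold lower (log2 fold change -1.21, SE 0.05, edgeR adjusted p = 1.70e-18). HMGCS1 and LSS were the only enzymes that fell at least 2-fold, a size of fall reached by 2.46% of all genes tested. CYP51A1 and DHCR7 lay near that size, and without treated replicate 1 they passed it too, at log2 fold changes of -1.07 and -1.03. CYP51A1 also passed it with no filter on low counts (-1.003) and without DMSO replicate 3 (-1.005), and lay at the limit itself without DMSO replicate 1. The 95% intervals of HMGCS1 and LSS, -1.48 to -1.29 and -1.32 to -1.11, overlapped.

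Of the 8 genes that carry lanosterol to cholesterol, 6 fell (75%, against 32.7% of all genes tested) and 2 did not pass the test. CYP51A1, which demethylates lanosterol, had 141, 117 and 125 CPM in the treated libraries, against 251, 262 and 248 CPM in the DMSO libraries. DHCR7, which makes cholesterol from 7-dehydrocholesterol in the last step of one branch, had 171, 132 and 157 CPM in the treated libraries, against 289, 295 and 302 CPM in the DMSO libraries. Both were far lower in every treated library, with log2 fold changes of -0.99 (SE 0.05) for CYP51A1 and -0.95 (SE 0.06) for DHCR7.

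MSMO1 and NSDHL strip methyl groups from the sterol ring, and EBP shifts the ring double bond. MSMO1 averaged 43.7 ± 4.63 CPM in treated cells and 80.4 ± 2.26 CPM in DMSO cells, NSDHL 41.1 ± 3.52 CPM in treated cells and 64.9 ± 2.80 CPM in DMSO cells, and EBP 91.3 ± 5.09 CPM in treated cells and 149.7 ± 4.36 CPM in DMSO cells. Their log2 fold changes were -0.88, -0.66 and -0.71, with edgeR adjusted p-values of at most 4.44e-10. HSD17B7, the ketosteroid reductase that works with them, had 11.2, 9.95 and 12.2 CPM in the treated libraries, against 12.0, 13.7 and 13.8 CPM in the DMSO libraries. Its groups overlapped (log2 fold change -0.24, edgeR adjusted p = 0.0681), it passed without treated replicate 3 (0.0415) and without DMSO replicate 1 (0.0419; 0.0415 to 0.522 over 13 alternatives), and pseudogene copies can share its reads. SC5DL, the older symbol of the desaturase SC5D, had 38.5, 39.2 and 38.9 CPM in the treated libraries, against 46.4, 44.3 and 37.5 CPM in the DMSO libraries (log2 fold change -0.13, edgeR adjusted p = 0.105), and without DMSO replicate 3, its lowest DMSO library, it fell by 0.22 (adjusted p = 0.00919; 0.00919 to 1 over 13 alternatives).

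LBR and TM7SF2 encode enzymes for the same reduction of the sterol ring, and LBR also anchors chromatin at the inner nuclear membrane. LBR had 345, 316 and 356 CPM in the treated libraries, against 517, 525 and 500.1 CPM in the DMSO libraries, the highest level per kb of exon among all 32 genes in treated cells. TM7SF2 had 14.7, 13.7 and 16.1 CPM in the treated libraries, against 13.3, 15.0 and 16.4 CPM in the DMSO libraries, with overlapping groups. LBR fell (log2 fold change -0.60, 95% interval -0.68 to -0.52) and TM7SF2 did not pass (log2 fold change -0.01, 95% interval -0.23 to 0.21, edgeR adjusted p = 0.948). The ratio of LBR to TM7SF2 within a library, per kb of exon on the log2 scale, was 3.34 ± 0.05 in treated and 3.94 ± 0.18 in DMSO cells (SD, n = 3 each; two-sided exact permutation p = 0.1, the smallest that 3 libraries against 3 allow).

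**Figure D3:**
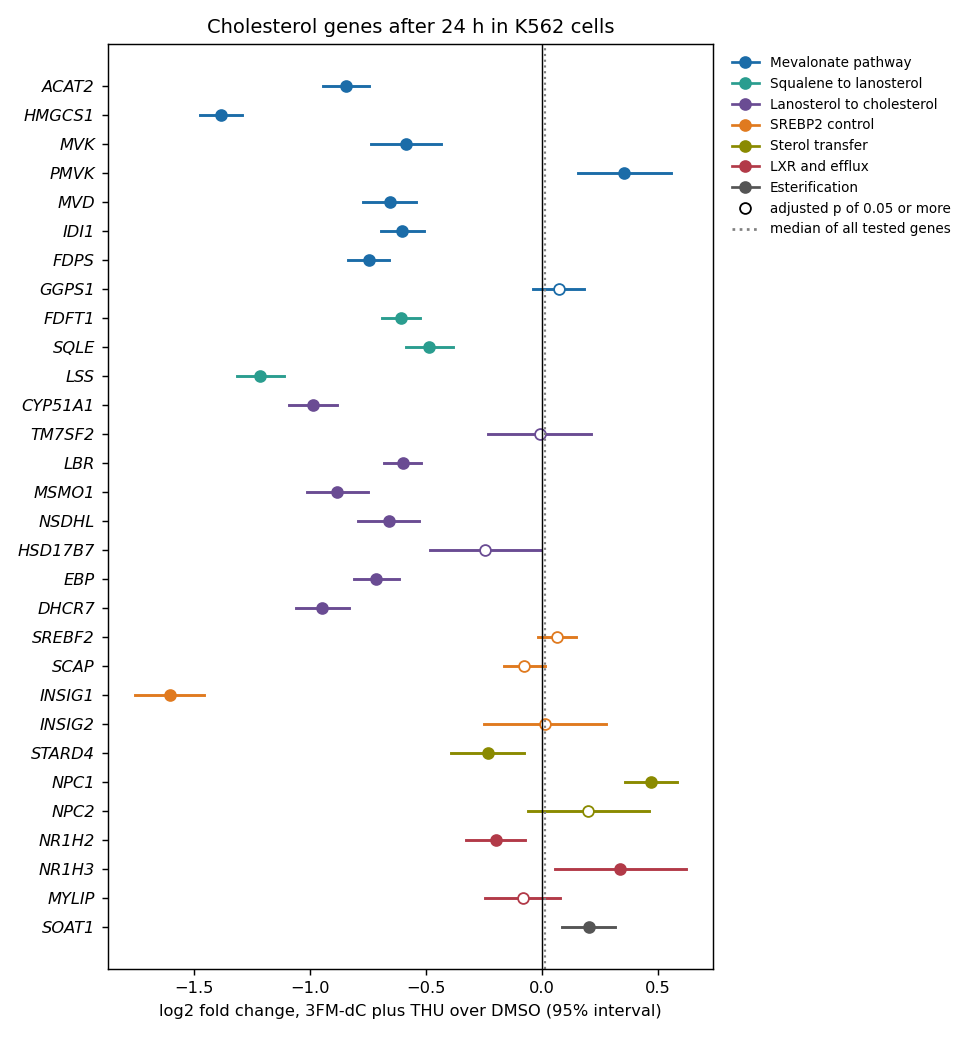
Log2 fold change of each tested cholesterol gene, 3FM-dC plus THU over DMSO, with its 95% interval from edgeR, coloured by role and in pathway order. Filled points passed an adjusted p of 0.05, and those left of 0 are 15 enzymes, INSIG1, STARD4 and NR1H2.

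Of the 4 genes of the sterol-sensing machinery, INSIG1 fell (25%, against 32.7% of all genes tested) and the other 3 did not pass the test. INSIG1, which retains SCAP in the endoplasmic reticulum and is itself induced by SREBP2, had 174, 116 and 148 CPM in treated replicates 1, 2 and 3, against 443, 464 and 423 CPM in DMSO replicates 1, 2 and 3. Treated values varied more than DMSO values around their mean, and replicate 2 was the lowest. INSIG1 was 3.04-fold lower (log2 fold change -1.61, SE 0.07, edgeR adjusted p = 2.50e-17), the largest fall among the 30 tested genes. Per kb of exon it ranked 7 of 32 in treated and 1 of 32 in DMSO cells, at 47.3 and 144 CPM per kb.

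INSIG2, its paralogue with the same task, had 9.32, 11.5 and 12.0 CPM in the treated libraries, against 11.8, 11.5 and 9.53 CPM in the DMSO libraries. Its groups overlapped (log2 fold change 0.01, 95% interval -0.25 to 0.28, edgeR adjusted p = 0.939). The log2 ratio of INSIG1 to INSIG2 per kb of exon was 3.97, 3.08 and 3.37 in treated and 4.98, 5.09 and 5.22 in DMSO libraries. These ranges did not overlap, with a difference of -1.63 (two-sided exact permutation p = 0.1, the smallest possible here; 0.1 after adjustment over the 3 ratios compared).

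SREBF2, the gene of SREBP2 itself, had 218, 210.1 and 222 CPM in the treated libraries, against 199, 208 and 214 CPM in the DMSO libraries. Its groups overlapped (log2 fold change 0.07, 95% interval -0.02 to 0.15, edgeR adjusted p = 0.148). It passed as higher with total counts (0.16, adjusted p = 0.000672), when only genes averaging 5 CPM or more were tested (0.11, adjusted p = 0.0171) and without treated replicate 2 (0.09, adjusted p = 0.0435), over a range of 0.000672 to 1 in 13 alternatives. SCAP averaged 156 ± 6.22 CPM in treated cells and 164 ± 4.82 CPM in DMSO cells (SD, n = 3 each). SCAP had a log2 fold change of -0.08 (95% interval -0.16 to 0.01, edgeR adjusted p = 0.119). Every treated value of SCAP lay below every DMSO value, as in 34.5% of all genes tested. With total counts its log2 fold change was 0.01 (edgeR adjusted p = 0.775).

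Of the 3 sterol transfer genes, 1 rose, 1 fell and 1 did not pass. The shares of 33.3% and 33.3% were near the 33.8% and 32.7% of all genes tested. NPC1 exports cholesterol from lysosomes and had 89.4, 91.0 and 88.4 CPM in the treated libraries, against 69.9, 63.6 and 60.6 CPM in the DMSO libraries. Every treated library was above every DMSO library, as in 35.5% of all genes tested, and NPC1 rose 1.39-fold (log2 fold change 0.47, SE 0.05, edgeR adjusted p = 1.39e-08), the largest rise among the 30 tested genes. None of the 30 rose at least 2-fold, a size of rise reached by 10.2% of all genes tested. NPC2, which hands cholesterol to NPC1 in the lysosome, averaged 10.3 ± 0.582 CPM in treated cells and 8.95 ± 0.600 CPM in DMSO cells and did not pass (log2 fold change 0.20, edgeR adjusted p = 0.169), but passed with total counts (adjusted p = 0.0476; 0.0476 to 0.675 over 13 alternatives).

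STARD4, a soluble carrier that moves sterols between membranes and is a known SREBP2 target, had 27.0, 27.5 and 29.7 CPM in the treated libraries, against 34.6, 34.8 and 30.0 CPM in the DMSO libraries. The groups came close without overlapping, and STARD4 fell by 0.23 on the log2 scale (SE 0.08, edgeR adjusted p = 0.00940). This call was lost with total counts (adjusted p = 0.106) and against a minimum fold change of 1.2 (adjusted p = 0.615; 0.00284 to 0.615 over 13 alternatives).

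LXR and efflux genes showed small differences in treated cells. Of the 5 genes, 1 rose, 1 fell and 1 did not pass, and 2 held too few reads to be tested. Of the 3 tested, 33.3% rose and 33.3% fell, near the 33.8% and 32.7% of all genes tested. NR1H2, which encodes the widely expressed receptor LXRβ, had 46.5, 47.3 and 52.2 CPM in the treated libraries, against 54.8, 53.9 and 58.9 CPM in the DMSO libraries. NR1H3, which encodes LXRα, had 9.83, 11.1 and 8.72 CPM in the treated libraries, against 8.21, 7.12 and 8.08 CPM in the DMSO libraries. The groups did not overlap for either gene, as in 34.5% (treated below) and 35.5% (treated above) of all genes tested. NR1H2 fell by 0.20 (SE 0.06, edgeR adjusted p = 0.00614) and NR1H3 rose by 0.34 (SE 0.14, edgeR adjusted p = 0.0320) on the log2 scale.

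Neither call was stable. That of NR1H2 was lost with total counts (adjusted p = 0.125), without DMSO replicate 3 (0.0542) and against a minimum fold change of 1.2 (0.874; 0.00189 to 0.874 over 13 alternatives). That of NR1H3 was lost in 6 of 13 alternatives: DESeq2 (0.0537), the minimum fold change of 1.2 (0.248), and without treated replicate 1 (0.0519), treated replicate 2 (0.161), DMSO replicate 2 (0.118) or DMSO replicate 3 (0.0517), over a range of 0.00758 to 0.248. The log2 ratio of NR1H3 to NR1H2 per kb of exon was -3.05 ± 0.25 in treated and -3.59 ± 0.09 in DMSO cells (SD, n = 3 each; two-sided exact permutation p = 0.1, the smallest possible). NR1H2 thus remained the more abundant receptor transcript in both groups. ACP2 on the opposite strand, itself higher by 0.53 on the log2 scale, overlaps 5.39% of the exonic bases of NR1H3.

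MYLIP, an LXR-induced ubiquitin ligase that lowers lipoprotein receptors at the cell surface, had 39.0, 31.2 and 33.9 CPM in the treated libraries, against 38.5, 33.5 and 38.0 CPM in the DMSO libraries. The groups overlapped (log2 fold change -0.08, 95% interval -0.25 to 0.08, edgeR adjusted p = 0.363). The exporter ABCA1 had 0, 0 and 1 counts in treated and 1, 1 and 1 counts in DMSO libraries. ABCG1, which passes cholesterol to lipoprotein particles, had 0, 1 and 0 counts in treated and 0 counts in each DMSO library. The floor of 3 counts equals 0.136 to 0.168 CPM depending on the library, so no difference in these exporters was detectable, and no fold is given. SOAT1, which esterifies cholesterol for storage, had 66.3, 64.0 and 64.7 CPM in the treated libraries, against 57.3, 57.9 and 54.6 CPM in the DMSO libraries. It rose 1.15-fold without overlap (log2 fold change 0.20, SE 0.06, edgeR adjusted p = 0.00217), but did not pass against a minimum fold change of 1.2 (adjusted p = 0.908; 2.89e-05 to 0.908 over 13 alternatives).

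The summed level of a role follows its most abundant genes. The 19 enzymes of synthesis summed to 2047, 1839 and 1926 CPM in the treated and 3243, 3286 and 3199.9 CPM in the DMSO libraries, a ratio of 0.597 between the means. By stage the ratio was 0.581 for the mevalonate pathway, 0.627 for squalene to lanosterol and 0.593 for lanosterol to cholesterol. The 4 sterol-sensing genes summed to 529 ± 38.0 CPM in treated and 826 ± 18.7 CPM in DMSO cells (SD, n = 3 each), a ratio of 0.641, although INSIG1 alone of them passed the test. Sterol transfer genes summed to 128 ± 0.873 CPM in treated and 107 ± 6.98 CPM in DMSO cells, and LXR and efflux genes to 93.3 ± 3.23 and 100.4 ± 5.33 CPM in treated and DMSO cells (SD, n = 3 each).

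**Figure D4:**
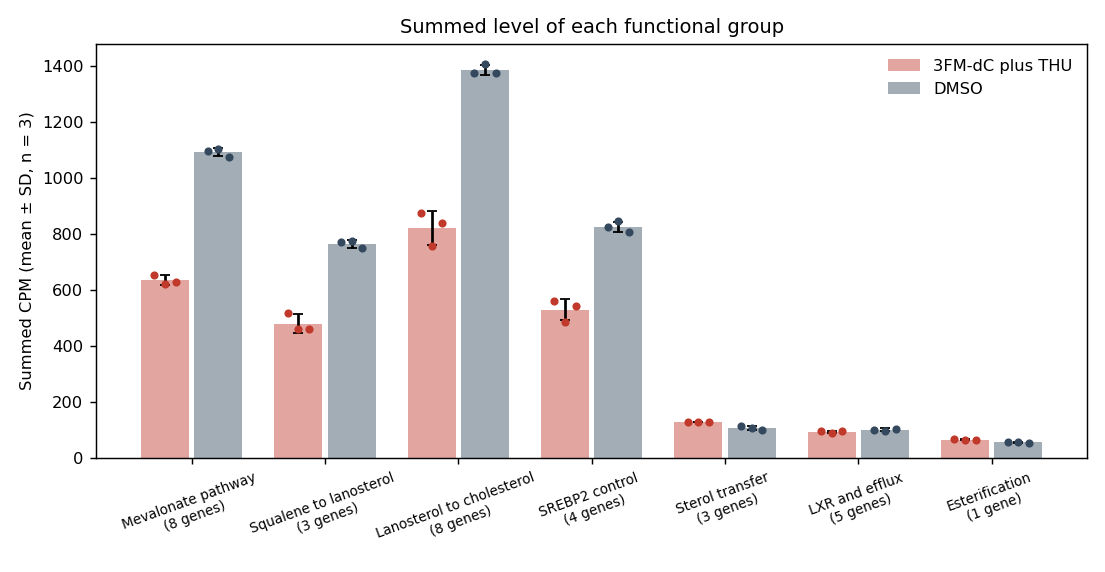
Summed CPM of the cholesterol genes in each role, with 3FM-dC plus THU left of DMSO; bars are means, error bars SD and points the 3 libraries of each group. The 3 stages of synthesis reach 0.581 to 0.627 of their DMSO sums, while LXR and efflux genes average 93.3 CPM in treated and 100.4 CPM in DMSO cells.

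The treated libraries differed among themselves. Of the 18 cholesterol genes that fell, 12 had their lowest treated value in replicate 2, 4 in replicate 3 and 2 in replicate 1. Replicate 2 also lay farthest from the DMSO libraries on the first principal component of all tested genes (86.3% of the variance), at -42.4, against -30.9 and -35.1 for replicates 1 and 3 and 35.8 to 36.5 for DMSO libraries. Without it, 18 of the 30 tested genes still fell and 15 of the 19 enzymes. Across all 32 genes, LBR, FDPS and SQLE had the highest levels per kb of exon in treated cells, at 87.0, 72.6 and 63.6 CPM per kb. In DMSO cells INSIG1, LBR and FDPS led, at 144, 132 and 122 CPM per kb.

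The authors' deposited table compares a group B with a group A that its headers do not name. Of the 32 genes, 21 had an adjusted p under 0.05 in the authors' deposited table, all among the 22 called by edgeR here, with NR1H3 the gene not shared (0.0796). The authors' deposited table gives B over A ratios of 0.379 for HMGCS1, 0.326 for INSIG1 and 1.37 for NPC1. Of the 30 tested genes, 29 had a ratio on the same side of 1 as treated over DMSO here, and INSIG2 was the exception.

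A second list held 50 further genes of sterol metabolism, of which 39 were tested, 13 fell and 11 rose, shares of 33.3% and 28.2% near those of all genes (32.7% and 33.8%). Within it, the group of genes for SREBP processing or sterol-regulated protein degradation, which includes SREBF1, had 9 members. Of these, 6 rose (66.7%, against 33.8% of all genes tested) and 2 fell (22.2%, against 32.7%). SYVN1, the ligase of endoplasmic reticulum degradation also called HRD1, had 97.1, 97.8 and 98.4 CPM in the treated libraries, against 73.7, 76.3 and 77.2 CPM in the DMSO libraries. MBTPS1, the Golgi protease that makes the first cut in SREBP, had 128, 129 and 127 CPM in the treated libraries, against 103, 93.3 and 103 CPM in the DMSO libraries. Both rose without overlap, with log2 fold changes of 0.37 and 0.36 (edgeR adjusted p at most 1.46e-07). SREBF1, whose product SREBP1 drives fatty acid and sterol genes and is itself processed, was 1 of the 2 that fell. SREBF1 had 121, 100.2 and 111 CPM in the treated libraries, against 174, 176 and 175 CPM in the DMSO libraries (log2 fold change -0.66, SE 0.05).

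Among further genes of uptake and transfer, 4 of 11 tested members fell (36.4%, near the 32.7% of all genes tested) and 2 rose (18.2%, against 33.8%). VLDLR, a receptor for triglyceride-rich lipoproteins, falls outside the rule for named genes and was chosen after its values were seen. It had 40, 37 and 38 counts in treated and 1, 2 and 8 counts in DMSO libraries, too few for a precise fold. VLDLR entered the test, and so the 2 rises, through its treated counts alone. Its counts in DMSO replicates 1 and 2 lay below the floor of 3 counts. The fitted log2 fold change was 3.26 (95% interval 2.27 to 4.26). SCARB1, a receptor that takes cholesterol from high-density lipoprotein, had 76.3, 63.9 and 67.6 CPM in treated replicates 1, 2 and 3, against 198, 194 and 198 CPM in DMSO replicates 1, 2 and 3. It was 2.84-fold lower (log2 fold change -1.51, SE 0.05, edgeR adjusted p = 3.12e-20), a fall between those of INSIG1 and HMGCS1. TMEM97, a membrane protein that binds NPC1, had 75.5, 57.2 and 67.6 CPM in the treated libraries, against 121, 119.5 and 118 CPM in the DMSO libraries. LRP8, a lipoprotein receptor, had 35.6, 29.4 and 32.1 CPM in the treated libraries, against 49.5, 50.8 and 49.1 CPM in the DMSO libraries. Both fell without overlap, by 0.84 and 0.62 on the log2 scale. Away from uptake, a group of 12 genes was tested, most but not all of which use mevalonate products. Of these 12, 4 fell (33.3%, near the 32.7% of all genes tested) and 1 rose (8.33%, against 33.8%). PDSS1, which makes the side chain of coenzyme Q, had 24.3, 20.6 and 25.3 CPM in the treated libraries, against 37.9, 33.6 and 34.9 CPM in the DMSO libraries. It fell by 0.60 on the log2 scale without overlap.

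Of 15 further genes of efflux, storage and oxysterols, 7 were tested, of which 2 rose (28.6%, against 33.8% of all genes tested) and 3 fell (42.9%, against 32.7%). PLTP, a phospholipid transfer protein and known LXR target, had 28.7, 32.3 and 30.0 CPM in the treated libraries, against 16.7, 16.6 and 18.1 CPM in the DMSO libraries. PLTP rose 1.77-fold (log2 fold change 0.82, SE 0.08, edgeR adjusted p = 1.17e-09) with all treated values above all DMSO values. RXRB, a partner receptor of LXR, had 57.3, 62.6 and 57.2 CPM in the treated libraries, against 44.9, 46.6 and 45.1 CPM in the DMSO libraries and rose by 0.37 on the log2 scale (SE 0.06). The 3 that fell lie outside the rule for named genes and were chosen after their values were seen. RXRA, the other partner receptor of LXR measured here, had 32.9, 31.0 and 34.5 CPM in the treated libraries, against 45.1, 44.5 and 48.8 CPM in the DMSO libraries. RXRA fell by 0.49 on the log2 scale (SE 0.07, edgeR adjusted p = 3.05e-07) without overlap, so the partner genes RXRA and RXRB moved in opposite directions. LPCAT3, a phospholipid-remodelling enzyme and known LXR target like PLTP, averaged 40.2 ± 0.519 CPM in treated cells and 55.3 ± 0.595 CPM in DMSO cells (SD, n = 3 each). The transporter gene ABCA2 averaged 11.05 ± 0.665 CPM in treated cells and 16.0 ± 3.24 CPM in DMSO cells (SD, n = 3 each). LPCAT3 fell by 0.46 and ABCA2 by 0.54 on the log2 scale, with edgeR adjusted p-values of at most 4.75e-04.

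**Figure D5:**
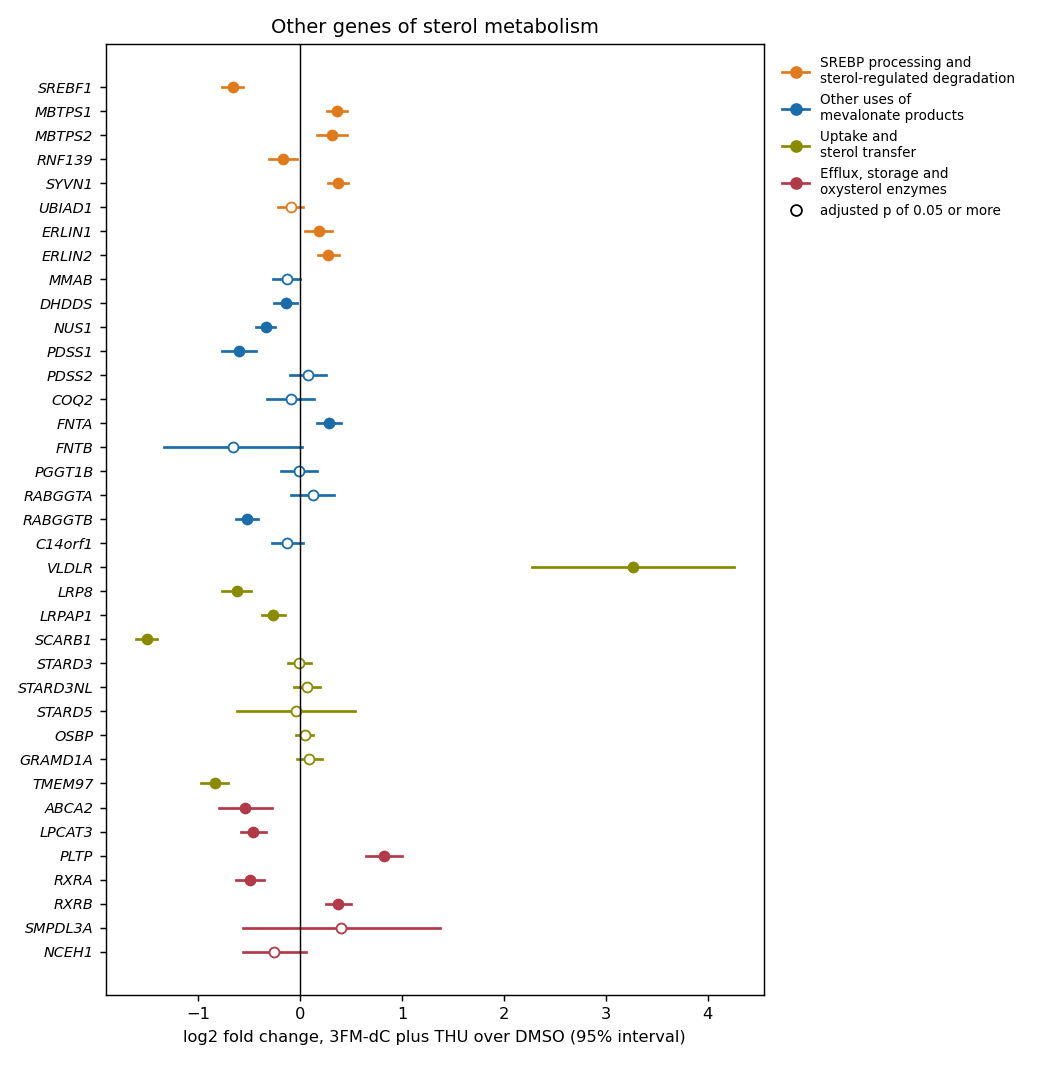
Log2 fold change with 95% interval for 37 of the 39 tested genes of the second list, 3FM-dC plus THU over DMSO, coloured by role, with filled points for an adjusted p under 0.05. SCARB1 lies farthest left at -1.51, and most genes of SREBP processing and sterol-regulated degradation lie right of 0. VLDLR lies farthest right at 3.26, an imprecise value because its DMSO libraries held 1, 2 and 8 counts.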

How the data were processed

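RNA of 6 K562 libraries was measured, 3 per group. Each file deposited by the authors holds unnormalized counts of reads by gene symbol. STAR, Cufflinks, DESeq2 and build hg19 are named, without roles, in the submitters' processing notes. Strand setting and annotation are not given in these sources. The 5 totals of unassigned reads, including reads in no feature (10.9% to 13.1%), were left out. The authors' deposited table holds, per the file headers, fold ratios of unnamed groups, p-values and their adjusted values.

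Differences were fitted in edgeR 4.0.16 (R 4.3.3, quasi-likelihood), with TMM scaling, treatment as the only term and filterByExpr at a minimum count of 10. This filter kept 12339 of 23710 symbols. P-values were two-sided with Benjamini-Hochberg adjustment over all genes tested, with calls at an adjusted p below 0.05. The floor was 3 counts per library, which covers counting error only. Alternatives were DESeq2 1.42.0, its size factors in edgeR, total counts, no filter on low counts, a mean of at least 5 CPM, a minimum fold change of 1.2, a replicate block and each library left out in turn, 13 in all. The code was tested on simulated data. Replicate pairs differed beyond counting noise (chi-square per degree of freedom 2.38 to 6.22).

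Exonic lengths and overlaps came from GENCODE 29 (GRCh38), matched by symbol, and served only levels per kb and overlaps. Promoter sequences came from RefSeq (GRCh38.p14). The genes, lists, motifs and gene pairs were chosen with earlier results of these data known. All 33 listed genes are accounted for; of the second list, the 5 largest calls in each direction with a mean of at least 2 CPM are named, except any not reported here. Some genes of this pathway are not reported here, though counts over the second list include them.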

Additional observations from a re-analysis of the deposited data

How the results depend on the processing

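The count of 15 falling enzymes was the same or 16 in all 13 alternatives, and the same 15 enzymes kept their call in each. The total of changed genes was 8198, and 4765 against a minimum fold change of 1.2; leaving out single libraries gave 7668 to 8183. With total counts 5059 genes were higher and 3185 lower, against 4167 and 4031 with TMM, and the median log2 fold change of all genes moved by 0.0915. The rising cholesterol genes, 4 with TMM, numbered 7 with total counts and 1 against the minimum fold change, and 3 to 4 without single libraries. Rising enzymes numbered 2 with total counts and 0 against the minimum fold change. For LXR and efflux genes, 1 fell with TMM, and 0 with total counts and against the minimum fold change (0 to 1 without single libraries); 1 rose with TMM, and 0 with DESeq2 and against the minimum fold change (0 to 1 without single libraries). Rising genes of the second list numbered 11, and 6 against the minimum fold change. The minimum fold change tests against a stricter null, and the causes of the other shifts were not tested. No tested gene of the first list, nor SC5DL, nor any gene of the second list named by rule changed sign with a call. Other genes given here, among them VLDLR, RXRA, LPCAT3 and ABCA2, were not put through the alternatives. The labels state no pairing, and none by replicate number was seen (deviations of same-numbered libraries correlated at -0.0674 to -0.000611). With 3 libraries per group this check cannot exclude a small shared effect. With a replicate block 18 cholesterol genes fell and 4 rose, as without, and 8050 genes changed in all. Depth limits ABCA1 and ABCG1, and with 3 libraries per group an exact test of a single ratio cannot go below 0.1.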
